A study of Mus musculus with 6 samples.

Results

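The platelet-derived growth factor (PDGF) family was examined in the Achilles tendon of mice that had a sham operation or an amputation of the tendon, an injury used to provoke bone formation outside the skeleton. The 8 genes were chosen by name, with earlier results of these data known. They were the ligand genes Pdgfa, Pdgfb, Pdgfc and Pdgfd, the receptor genes Pdgfra and Pdgfrb and the receptor-like gene Pdgfrl. The last was Cspg4, which codes for the proteoglycan NG2. All 8 were found among the 21878 genes of the deposited tables, and all 8 passed the filter on low counts that left 14561 genes to test. RNA was sequenced in 3 libraries with the treatment label sham, called sham 1 to 3 here, and in 3 with the label Achilles tendon amputation, called cut 1 to 3. The labels name the tissue as Achilles tendon in both groups and give no strain, sex, age, allele or time after surgery. Since nothing ties the replicates to separate animals, p-values speak only of the spread among these samples, and part of it may be technical.

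PDGF ligands are secreted dimers that drive the migration and division of mesenchymal cells. PDGF-A and PDGF-C act mainly through the alpha receptor, PDGF-B through both receptors and PDGF-D mainly through the beta receptor, and ligand binding pairs the receptors and switches on their tyrosine kinases. In connective tissue the alpha receptor marks fibroblasts and fibro-adipogenic progenitors, and the beta receptor and NG2 mark pericytes and other mural cells of vessels, which are recruited by PDGF-B from endothelium. All of these genes can also be expressed by other mesenchymal cells, and in bulk tissue a change in the number of cells and a change in RNA per cell cannot be told apart.

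Sequence upstream of the start is shown for Cspg4, Pdgfc and Pdgfd, the ligand and proteoglycan genes with higher mean levels in cut tendon whose RefSeq promoter window reached beyond every annotated start of the gene (RefSeq, GRCm38.p6, plus strand, 5′ to 3′). Capitals mark matches to a motif that was searched on both strands.
Cspg4: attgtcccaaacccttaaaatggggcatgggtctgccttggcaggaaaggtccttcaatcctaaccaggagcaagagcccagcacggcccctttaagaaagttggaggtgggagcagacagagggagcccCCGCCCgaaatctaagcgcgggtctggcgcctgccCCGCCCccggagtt
Pdgfc: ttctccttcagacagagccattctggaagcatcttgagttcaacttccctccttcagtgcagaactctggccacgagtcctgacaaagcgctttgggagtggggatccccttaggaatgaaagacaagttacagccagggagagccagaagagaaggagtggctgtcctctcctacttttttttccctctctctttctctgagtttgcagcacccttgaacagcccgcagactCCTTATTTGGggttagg
Pdgfd: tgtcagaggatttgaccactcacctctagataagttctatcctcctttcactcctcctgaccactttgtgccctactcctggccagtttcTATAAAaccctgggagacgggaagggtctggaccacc
The Cspg4 stretch (chr9:56864854-56865032, 179 bases, 60.3% G or C) held 2 GC boxes (GGGCGG or its complement, the letters bound by SP1-type factors), at -120 and -85 from the RefSeq start. The Pdgfc stretch (chr3:81036166-81036415, 250 bases, 50.8% G or C) held a CArG box, the element bound by serum response factor, at -17. The Pdgfd stretch (chr9:6168236-6168362, 127 bases, 51.2% G or C) held a TATA box (TATAAA). Its position of -160 counts from the end of the 250-base window at 6168485, not from the RefSeq gene start at 6168363. The bases that follow this window were not found near the start of a GENCODE transcript of Pdgfd. Of 32851 mouse promoter windows of 250 bases, 32.7% held a GC box, 12.4% a TATA box and 1.47% a CArG box. The windows of Pdgfa held 1 GC box at -60 in the one and 2 in the other, at -93 and -86, and the window of Pdgfra held none of the motifs. No match to a CCAAT box (CCAAT, in 33.8% of all windows), an AP-1 site (TGANTCA, 6.75%) or an EGR site (GCGGGGGCG, 2.57%) was found in any of the 6 windows of these 5 genes. A match describes letters only.

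Library totals ran from 23916839 to 31346730 counts, and 1 count stood for 0.0322 to 0.0409 CPM (counts relative to the library total, scaled by the trimmed mean of M-values, TMM). The tendon markers Scx and Tnmd were present in every library, but so was muscle RNA: 30 skeletal muscle genes took 20.1% to 22.3% of all counts of a sham library, 1.73% of cut 1, 0.568% of cut 2 and 16.4% of cut 3. Cut 3 thus stood apart from cut 1 and 2 in this measure. Over all genes its counts were also nearer to sham 1 to 3, at a chi-square of 292, 300 and 344 per gene. The same value was 566 against cut 1 and 792 against cut 2.

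Cut tendon was set against sham tendon for each of the 8 genes. Pdgfrl, Cspg4, Pdgfrb and Pdgfd rose, by 10.2-fold, 3.52-fold, 1.91-fold and 1.39-fold, and Pdgfb fell 1.73-fold. Pdgfa, Pdgfc and Pdgfra did not pass the test. Of the 8 genes, 4 were thus higher and 1 was lower at an adjusted p under 0.05, beside 20.4% of all tested genes higher and 12.3% lower, 32.7% in all (quasi-likelihood test of edgeR, adjusted by Benjamini-Hochberg over 14561 genes, n = 3 per group). The median log2 fold change of the 8 genes was 0.59, against -0.02 over all tested genes. The CPM of the groups did not overlap for 6 of the 8, beside 54.8% of all tested genes. Without cut 3 the counts were 6 higher and 1 lower, beside 4212 higher and 4392 lower among all genes tested in that fit. Without sham 1, sham 2, sham 3, cut 1 and cut 2 in turn, 2, 1, 1, 1 and 2 genes were higher, and none was lower without sham 2. Over all genes, 1566, 1091, 1585 and 1863 were higher without sham 1, sham 2, cut 1 and cut 2. Those lower were 670, 436, 688 and 893, so the calls over all genes moved as well. With the muscle list as a covariate only Pdgfrl was called, beside 1466 genes higher and 626 lower in all. The muscle share was lower in every cut library than in every sham library, and near sham only in cut 3. This fit therefore leans on cut 3, and muscle share and treatment can hardly be told apart by it.

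**Figure D1:**
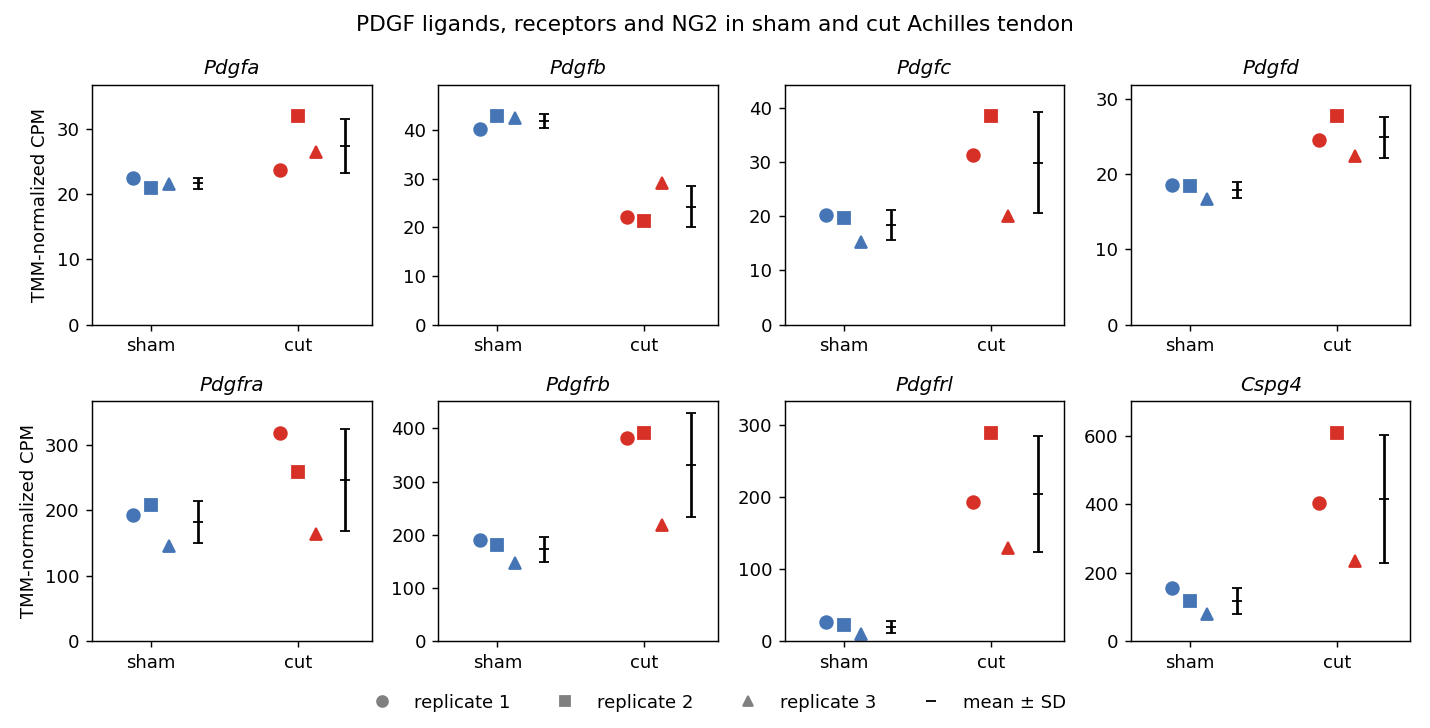
TMM-normalized CPM of the 8 genes in the 3 sham (blue) and 3 cut (red) libraries, with the replicate number as the symbol and the mean ± SD beside the points. All cut libraries lie above all sham libraries for Pdgfrl, Cspg4, Pdgfrb, Pdgfd and Pdgfa and below them for Pdgfb, while cut 3 (triangle) lies within the sham range for Pdgfc and Pdgfra.

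Pdgfb (NCBI gene 18591, chromosome 15, 79995865 to 80024614), which codes for the ligand that endothelium uses to recruit mural cells, was the gene that fell. It stood at 40.3, 42.8 and 42.5 CPM in sham 1 to 3 and at 22.2, 21.4 and 29.1 CPM in cut 1 to 3. The sham libraries lay within a narrow range, and every cut library lay below it, cut 3 nearest. The log2 fold change was -0.79 ± 0.15 (SE, adjusted p = 0.0118 in edgeR's test). The call was lost without sham 2 (-0.79) and with the muscle covariate (-0.51).

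Pdgfd (NCBI gene 71785, chromosome 9, 6168363 to 6534284) codes for a ligand that is secreted with an inhibitory CUB domain and must be cut by a protease before it binds the beta receptor. It stood at 18.6, 18.4 and 16.7 CPM in sham and at 24.6, 27.7 and 22.3 CPM in cut tendon. All 3 cut libraries were above all 3 sham libraries, by a small step. The log2 fold change was 0.47 ± 0.12 (adjusted p = 0.0314 in edgeR's test), and leaving out any 1 library other than cut 3 ended the call (0.39 to 0.50), as did the muscle covariate (0.28).

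Pdgfc (NCBI gene 54635, chromosome 3, 81036416 to 81214040) codes for the other ligand with a CUB domain, which acts on the alpha receptor. Its levels were 20.1, 19.6 and 15.2 CPM in sham and 31.3, 38.4 and 19.97 CPM in cut tendon. Cut 1 and 2 were above all sham libraries, and cut 3 was level with sham 1 and sham 2. The log2 fold change of 0.71 ± 0.26 did not pass the test (adjusted p = 0.0755 in edgeR's test), although it did with the replicate number as a block (0.67, adjusted p = 0.0311) and without cut 3 (0.93). With the muscle covariate it was 0.05.

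Pdgfa (NCBI gene 18590, chromosome 5, 138976014 to 139000792), the ligand of the alpha receptor alone, had the smallest step. It stood at 22.5, 20.9 and 21.6 CPM in sham and at 23.8, 31.96 and 26.4 CPM in cut tendon, so that the groups did not overlap. At a log2 fold change of 0.34 ± 0.14 it did not pass (adjusted p = 0.101, edgeR's test), nor under any of the 15 alternatives run. Of the merged exon length of Pdgfa in GENCODE, 813 of 3119 bases are shared with the antisense gene 6330403L08Rik. For Pdgfc the overlap is 147 of 5089 bases, with Gm16000, and for Pdgfra 456 and 166 of 10024 bases, with Gm42802 and Gm42803. Whether the counting used the strand is not stated, and the values of these 3 genes are uncertain to that extent.

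Per length, the ligand genes shifted in their proportions. In the deposited FPKM (fragments per kilobase of gene length, scaled to the library total), Pdgfb made up 20.03%, 21.7% and 22.9% of the summed ligand level in the sham libraries but 9.81%, 7.79% and 13.7% in the cut ones. Pdgfa made up 33.7% to 37.1% in sham and 33.5% to 39.8% in cut tendon, Pdgfc 17.8% to 21.8% and 20.5% to 30.4%, and Pdgfd 22.2% to 22.9% and 24.8% to 26.7%. In these values the share of Pdgfb was thus lower, and that of Pdgfd higher, in every cut library than in every sham library. The FPKM ratio of Pdgfa to Pdgfb was 1.78, 1.55 and 1.62 in sham and 3.41, 4.75 and 2.90 in cut tendon, a log2 difference of 1.13. The ratio of Pdgfc to Pdgfd overlapped between the groups, at 0.961, 0.943 and 0.802 in sham and 1.13, 1.23 and 0.791 in cut tendon (log2 difference 0.20). An exact permutation test, two-sided, gave p = 0.1 for the first ratio, the smallest that 3 against 3 libraries allow, and p = 0.5 for the second (0.167 and 0.5 after Benjamini-Hochberg adjustment over 5 ratios).

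Levels between genes depend on the length each count is divided by. The length behind the deposited FPKM was 8932 bases for Pdgfb and 1545 for Pdgfrl, while their merged exons in GENCODE span 4161 and 3126 bases. With the GENCODE lengths, a choice made after the lengths were seen, Pdgfb was the ligand gene with the highest mean level in sham (10.05 ± 0.294 SD, n = 3) and the one with the lowest in cut tendon (5.81 ± 0.839, overlapping Pdgfc at 5.91 ± 1.91), at 36.2% to 40.2% and 16.2% to 26.4% of the ligand sum. With the deposited lengths it came after 2 others in sham, at 4.68 ± 0.137 FPKM behind Pdgfa (7.71 ± 0.423) and Pdgfd (4.92 ± 0.422), and last in cut tendon, at 2.71 ± 0.391 behind Pdgfa (9.73 ± 1.1), Pdgfc (7.32 ± 2.36) and Pdgfd (6.85 ± 0.876). In the deposited values Pdgfd, Pdgfb and Pdgfc overlapped their neighbours in sham, as did Pdgfa, Pdgfc and Pdgfd in cut tendon.

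**Figure D2:**
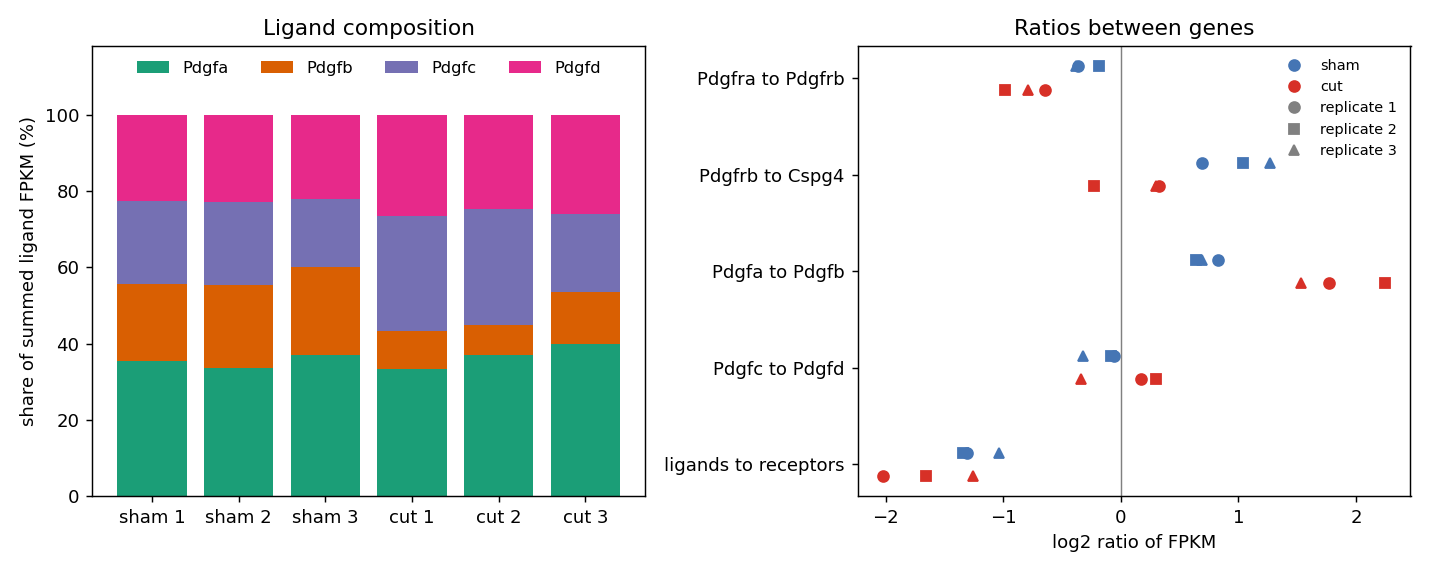
Left, the share of each ligand gene in the summed ligand FPKM of each library, in percent. Right, log2 ratios of the deposited FPKM between genes in each library (blue sham, red cut; symbols give the replicate number). The Pdgfb band narrows from 20.03% to 22.9% in sham to 7.79% to 13.7% in cut tendon, and the groups separate for the upper 3 ratios.

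Among the receptors, Pdgfrb (NCBI gene 18596, chromosome 18), the beta receptor of mural cells and activated fibroblasts, rose. It stood at 191, 181 and 146 CPM in sham 1 to 3 and at 382, 392 and 218 CPM in cut 1 to 3. All cut libraries were higher than all sham libraries, cut 3 by the least. The log2 fold change was 0.93 ± 0.27 (adjusted p = 0.0406 in edgeR's test). Leaving out any 1 library other than cut 3 ended the call (0.79 to 1.01), as did the muscle covariate (0.31).

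Pdgfra (NCBI gene 18595, chromosome 5, 75151322 to 75198206), the alpha receptor of fibroblasts and their progenitors, was not called. It stood at 193, 208 and 146 CPM in sham and at 318, 258 and 164 CPM in cut tendon. Cut 1 and 2 were above the sham libraries, and cut 3 was within their range. The log2 fold change was 0.44 ± 0.28 (adjusted p = 0.254 in edgeR's test). It was 0.66 and called without cut 3, and -0.10 with the muscle covariate.

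The balance of the receptor transcripts moved towards Pdgfrb. The FPKM ratio of Pdgfra to Pdgfrb was 0.777, 0.881 and 0.766 in the sham libraries but 0.640, 0.506 and 0.580 in the cut ones, lower in every cut library, cut 3 included. On the log2 scale it was -0.31 ± 0.11 in sham and -0.80 ± 0.17 in cut tendon (SD, n = 3; difference -0.49, two-sided exact permutation p = 0.1, the smallest possible, 0.167 after adjustment). Pdgfra thus made up 43.4% to 46.8% of the summed receptor level in sham and 33.6% to 39.0% in cut tendon. Leaving out each library in turn moved the difference between -0.57 and -0.40. The summed ligands stood to the summed receptors at 0.404, 0.393 and 0.488 in sham and at 0.246, 0.317 and 0.419 in cut tendon. The groups overlapped (log2 difference -0.42, exact permutation p = 0.3, 0.375 after adjustment). Each cut library was below the sham library of its own number, though it is not settled whether the numbers pair the libraries. The groups did not overlap in TMM-normalized CPM (-0.58, exact permutation p = 0.1) or with the GENCODE lengths (-0.63, p = 0.1).

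Pdgfrl (NCBI gene 68797, chromosome 8, 40926233 to 40990782) codes for a secreted protein that resembles the ligand-binding part of the receptors and has no kinase, and it changed the most of the 8. It stood at 27.3, 21.9 and 10.7 CPM in sham and at 193, 289 and 130 CPM in cut tendon. The lowest cut library was several times the highest sham library. The log2 fold change was 3.35 ± 0.45 (adjusted p = 0.00571 in edgeR's test), above 98.9% of all tested genes. It was called under all 15 alternatives run, at 2.57 with the muscle covariate and 2.57 to 3.64 over all of them. In the deposited FPKM Pdgfrl went from 13.0 ± 5.81 in sham, level with Cspg4, to 132 ± 50.4 in cut tendon, above the range of every other of the 8 genes. With the GENCODE lengths it was 6.44 ± 2.87 and 65.4 ± 24.9, beside 61.0 ± 20.4 for Pdgfrb in cut tendon.

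Cspg4 (NCBI gene 121021, chromosome 9, 56865104 to 56899870), whose product NG2 is a membrane proteoglycan that binds PDGF-AA and collagen VI, rose by log2 1.82 ± 0.41 (adjusted p = 0.0206 in edgeR's test). It stood at 157, 117 and 80.3 CPM in sham 1 to 3 and at 404, 608 and 235 CPM in cut 1 to 3. All cut libraries were above all sham libraries, with a wide spread in both groups. The call was lost without sham 2 (1.78), sham 3 (1.57) or cut 1 (1.84) and with the muscle covariate (0.86). Cspg4 moved further than Pdgfrb: the FPKM ratio of Pdgfrb to Cspg4 was 1.61, 2.06 and 2.41 in sham and 1.25, 0.852 and 1.23 in cut tendon (log2 difference -0.87, two-sided exact permutation p = 0.1, the smallest possible, 0.167 after adjustment).

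**Figure D3:**
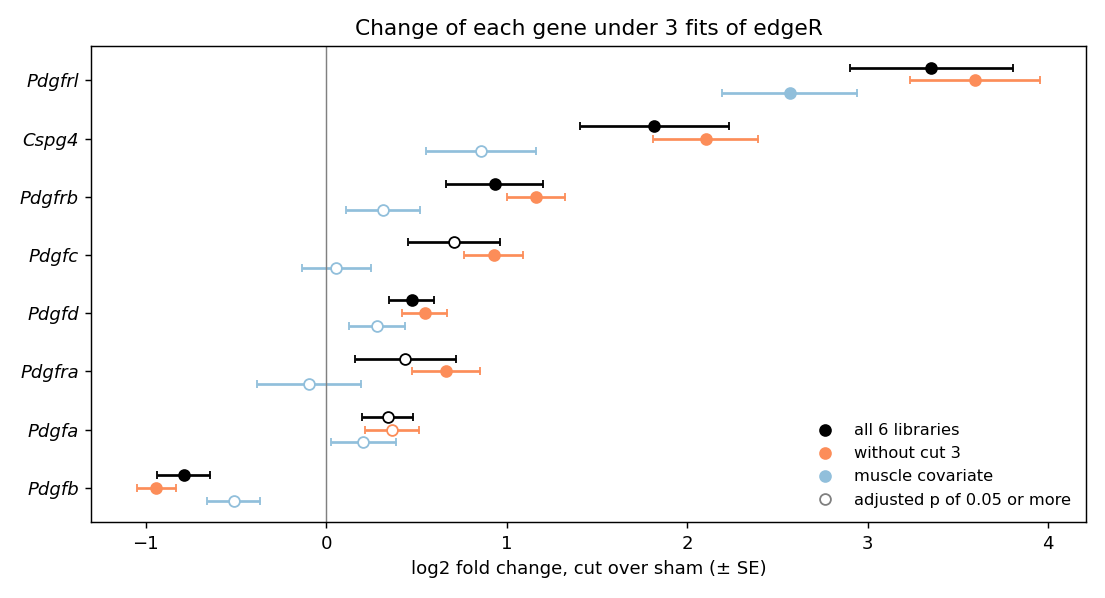
Log2 fold change of cut over sham ± SE for each gene from edgeR's quasi-likelihood test on all 6 libraries (black), without cut 3 (orange) and with the skeletal muscle level as a covariate (blue), with open circles where the adjusted p was 0.05 or more. Pdgfrl is called in all 3, and Pdgfra lies at 0.44, 0.66 and -0.10.

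Markers of the cells that carry these genes did not move as one group. Their counts stand beside 20.4% of all tested genes higher and 12.3% lower. Of 19 mural cell markers 6 passed as lower, 1 passed as higher and 12 did not pass (median log2 fold change -0.44; 2 were higher with the replicate block). Mcam, an adhesion molecule of pericytes, was 0.59 ± 0.13 log2 units lower, from 140 ± 4.27 to 93.1 ± 8.43 CPM, and the smooth muscle myosin gene Myh11 by 1.44 ± 0.33, from 364 ± 86.3 to 134 ± 44.7 CPM. Rgs4, a regulator of G-protein signalling in pericytes, rose by 1.17 ± 0.33, but was called without cut 3 alone when each library was left out (1.45), and not with limma-voom (1.08) or the muscle covariate (0.25). The adjusted p-values were 0.0176, 0.0206 and 0.0391 in edgeR's test. Mcam was not called without sham 1, 2 or 3 or cut 2 (-0.65 to -0.52), nor Myh11 without sham 1, sham 2 or cut 1 (-1.56 to -1.32), and 11 markers were lower without cut 3, 0 without sham 2 and 0 with the muscle covariate. The mural list summed to 4940 to 5133 CPM in sham and to 2080, 1908 and 4215 CPM in cut 1 to 3. Without Des, which muscle fibres also express, the sums were 2394 to 2834 CPM and 1860, 1767 and 2131 CPM. Abcc9, still in that list, stood at 316, 333 and 386 CPM in sham and at 92.6, 57.1 and 306 CPM in cut 1 to 3. It thus also followed the muscle share in the cut libraries (named after its values were seen). Whether the reduced list was free of muscle RNA was not tested. Per 1000 CPM of that reduced list, Pdgfrb stood at 61.2 to 69.4 CPM in sham and at 205, 222 and 102 CPM in cut 1 to 3, and Cspg4 at 33.6 to 57.0 and at 217, 344 and 110 CPM. The part of the mural cells in the rise of Pdgfrb and Cspg4 was not tested.

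Most endothelial markers, like Pdgfb, were lower in cut tendon. Of 12 markers 7 were lower, none was higher and 5 were not called, beside 12.3% of all tested genes lower. All 12 had negative log2 fold changes (median -0.66). Esam, an endothelial adhesion molecule, fell by 0.70 ± 0.11 (adjusted p = 0.00795 in edgeR's test) and the VEGF receptor gene Flt1 by 1.52 ± 0.26 (adjusted p = 0.00947). The list summed to 1293, 1501 and 1381 CPM in sham and to 859, 681 and 995 CPM in cut tendon. Per 1000 CPM of the list, Pdgfb stood at 31.2, 28.5 and 30.7 CPM in sham and at 25.8, 31.4 and 29.2 CPM in cut tendon, where the groups overlap. Without each library in turn 2 to 11 endothelial markers were lower, and 3 were with the muscle covariate. The part of the endothelium in the fall of Pdgfb was not tested.

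Platelets, which store PDGF, left little RNA. Of 12 platelet markers 6 passed the filter, of which 2 were higher and 2 lower (median -0.25, and 1 lower with the replicate block). Of all tested genes, 20.4% were higher and 12.3% lower. Gp1bb, a platelet membrane glycoprotein, stood at 1.27, 1.29 and 0.649 CPM in sham and 4.06, 4.93 and 2.08 CPM in cut tendon, and the platelet chemokine gene Ppbp at 2.25, 2.69 and 6.76 and at 1.16, 0.945 and 0.671 CPM. Gp1bb rose by 1.79 ± 0.42 and Ppbp fell by 2.07 ± 0.50 on the log2 scale (adjusted p = 0.0232 and 0.0242 in edgeR's test). Ppbp was not called with the block (-1.91, adjusted p = 0.0513) or without sham 2, cut 1 or cut 2 (-2.30 to -2.08), and Gp1bb was called without cut 3 alone. With the muscle covariate 0 platelet markers were higher and 0 lower. The list summed to 16.7 to 27.0 CPM in sham and 21.6 to 29.3 CPM in cut tendon.

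Of 20 fibroblast and progenitor markers 12 were higher and none was lower, beside 20.4% and 12.3% of all tested genes. The median of the list was 1.53, and 8 were not called. Those not called included the mesenchymal transcription factor genes Hic1 and Twist2, at -0.52 and -0.75 (named after their values were seen). Without sham 2, 7 were higher, and without cut 3, 3 were lower. DESeq2's Wald test called 2 lower. Postn, a matrix protein of activated fibroblasts, rose by 4.93 ± 0.32, from 72.3 ± 8.002 to 2210 ± 384 CPM, and the collagen-binding proteoglycan Lum by 4.81 ± 0.46 (adjusted p = 0.00238 and 0.00333 in edgeR's test). The list summed to 6918 to 11519 CPM in sham and 41481 to 90761 CPM in cut tendon. Per 1000 CPM of the list Pdgfra stood at 17.0, 18.0 and 21.1 CPM in sham and at 4.38, 2.84 and 3.95 CPM in cut tendon, and Pdgfrl at 2.41, 1.90 and 1.55 and at 2.66, 3.18 and 3.13 CPM. Pdgfra was thus lower, and Pdgfrl higher, relative to these markers in all 3 cut libraries. The sum is led by collagen genes, and its part in either result was not tested.

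Other cell types also shifted between the groups. The counts of their markers stand beside 20.4% of all tested genes higher and 12.3% lower. All 10 macrophage markers were higher (median 1.69), among them Lyz2 (2.25 ± 0.19) and Cd68 (2.27 ± 0.20), and they summed to between 309 and 409 CPM in sham and to between 1028 and 1291 CPM in cut tendon. Of 8 tendon cell markers 4 were higher and none lower (median 1.599; 1 higher without sham 2, 2 without sham 1, sham 3, cut 1 or cut 2 and with the muscle covariate, and 7 without cut 3), with Tnmd at 3.42 ± 0.40 and Kera at 1.85 ± 0.37 (Kera not called without sham 2, at 1.97). All 6 chondrocyte markers that passed the filter, of 8, were higher (median 6.64), and the list summed to 8167, 9579 and 1979 CPM in cut 1 to 3, with Acan at 6.81 ± 0.74 and Matn3 at 6.48 ± 0.75. Of 9 Schwann cell and glial markers tested, of 11, 4 were lower and none higher (median -1.18; 0 lower without sham 1, sham 2, cut 1 or cut 2 and with the muscle covariate, and 7 without cut 3), with Mbp at -1.37 ± 0.34 and Ncmap at -1.18 ± 0.32 (neither called without sham 1, sham 2, cut 1 or cut 2), and Olig2 had no count in any library. All 30 skeletal muscle genes were tested and none passed (edgeR, median -1.58), though 4 had an unadjusted p under 0.05, the DESeq2 Wald test called 12 lower, 30 were lower without cut 3 and 5 with the replicate block. Myl3 stood at -2.53 ± 0.87 and Myl2 at -2.37 ± 0.90, and the block gave -3.26 and -3.21, both called. Their part in the changes of the PDGF genes was not tested. The muscle covariate does not settle it for muscle, since that share nearly follows the treatment outside cut 3.

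**Figure D4:**
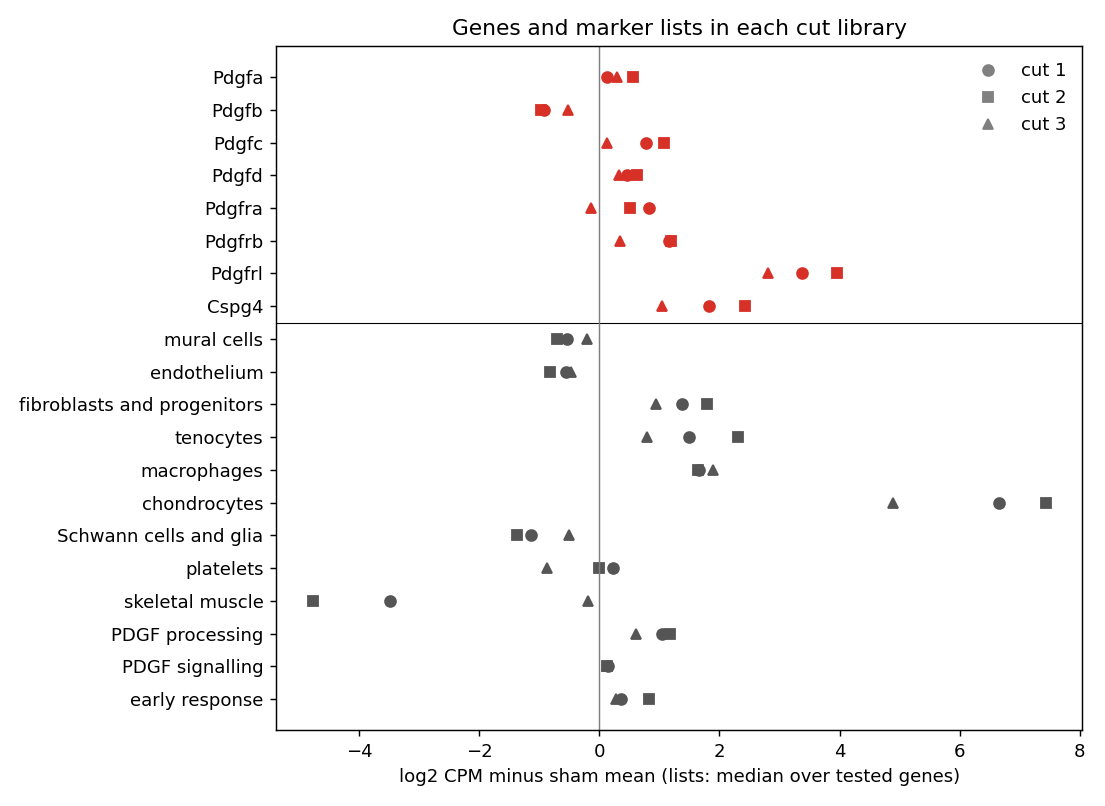
Log2 CPM of each gene (red), and the median over the tested genes of each list (grey), in cut 1 to 3 minus the sham mean. Cut 3 (triangle) lies closer to sham than cut 1 and 2 for Pdgfb, Pdgfc, Pdgfd, Pdgfra, Pdgfrb, Pdgfrl and Cspg4 and for skeletal muscle (-0.18 against -3.48 and -4.77), but not for macrophages.

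Of 13 genes for proteins that process or hold PDGF ligands, 6 passed as higher, 1 passed as lower and 6 did not pass, beside 20.4% of all tested genes higher and 12.3% lower. The median log2 fold change was 0.98 against -0.02 over all tested genes. Only 1 of the 13 was higher without sham 2 and 3 without sham 3, and 0 were lower without sham 1, sham 2, cut 1 or cut 2. Plat, the tissue plasminogen activator that cuts PDGF-C free of its CUB domain, stood at 24.4, 23.5 and 20.3 CPM in sham and 50.9, 49.2 and 34.6 CPM in cut tendon, a rise of 0.98 ± 0.18. The matrix proteoglycan gene Bgn rose by 3.14 ± 0.50, from 606 ± 125 to 5333 ± 2086 CPM. Pcsk6, a proprotein convertase, fell by 0.62 ± 0.16, whereas Furin and Pcsk5, which code for related convertases, rose by 1.10 and 1.75. The adjusted p-values of Plat, Bgn and Pcsk6 were 0.0112, 0.0077 and 0.0323 in edgeR's test. Plat was not called without sham 2 (0.98) or with the muscle covariate (0.61), nor Pcsk6 without sham 1, sham 2, cut 1 or cut 2 (-0.72 to -0.52). Furin and Pcsk5 were named after their values were seen.

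Of 48 genes of the signal inside the cell, 16 were higher (33.3%), 4 were lower (8.33%) and 28 were not called, beside 20.4% and 12.3% of all tested genes, with a median of 0.16. Grb10, an adaptor that binds activated receptors, stood at 113, 116 and 115 CPM in sham and 379, 467 and 269 CPM in cut tendon and rose by 1.70 ± 0.23. Spry4, a feedback inhibitor of receptor signalling, stood at 28.8, 30.3 and 25.6 CPM and at 14.9, 16.2 and 15.2 CPM and fell by 0.87 ± 0.12 (adjusted p = 0.00573 and 0.00551 in edgeR's test). Pik3r1, Pik3cb and Ptpn11 were the others that fell, by 1.30, 0.61 and 0.55 (named after their values were seen). Without each library in turn 3 to 19 were higher and 2 to 12 lower.

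Of 25 immediate early genes induced by PDGF and serum in cultured fibroblasts, 8 passed as higher (32%), 1 passed as lower (4%) and 16 did not pass (median 0.47). Over all tested genes 20.4% were higher and 12.3% lower, 32.7% called in all, so that the share called was near the background. Has2, a hyaluronan synthase, rose by 1.123 ± 0.211, from 15.8 ± 0.874 to 34.5 ± 9.31 CPM, and the transcription factor gene Egr3 by 1.34 ± 0.25, from 3.17 ± 0.389 to 8.05 ± 2.28 CPM. Maff, a small MAF transcription factor, fell by 0.96 ± 0.25, from 13.1 ± 2.87 to 6.75 ± 1.69 CPM (adjusted p = 0.0121, 0.0117 and 0.03 in edgeR's test). Has2 was not called without sham 1, 2 or 3 (1.08 to 1.14), Maff without those or cut 1 (-1.08 to -0.79), and Egr3 without sham 2 (1.31). None of the list was higher without sham 2, and 1 was with the muscle covariate. These genes also respond to many other signals.

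The genes whose log2 CPM over the 6 libraries was most like that of each called gene were sought among 11026 protein-coding genes of at least 5 CPM. They were Ttyh1 and Spon1 for Pdgfrl (Pearson r of 0.9996 and 0.9992), Prim2 and Pip4k2c for Cspg4 (0.999 and 0.999), Gbgt1 and Rabep2 for Pdgfrb (0.998 and 0.998), Actn1 and Man2b2 for Pdgfd (0.999 and 0.999), and Dnajc11 and Nnt for Pdgfb (0.999 and 0.999). Spon1, a secreted matrix protein, stood at 67.8, 60.8 and 33.1 CPM in sham and 462, 659 and 325 CPM in cut tendon, the same order of libraries as Pdgfrl. Nnt, a mitochondrial transhydrogenase, stood at 376, 408 and 423 CPM in sham and 70.5, 66.1 and 162 CPM in cut tendon. Rabep2 was not itself called (0.57, adjusted p = 0.0647 in edgeR's test), but it was with the replicate block (0.55) and without cut 3 (0.74). The points are 6 libraries in groups that stand apart, and 70 to 241 genes passed an r of 0.99 with each of these 5 genes, so a high r describes a shared pattern of libraries and is common here.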

How the data were processed

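RNA was measured in 3 sham and 3 cut-tendon libraries made with a stranded, ribosome-depleted total RNA kit, per the labels' protocols. The submitters' processing notes name Trimmomatic, HISAT2 and the build GRCm38.p6. The counting program and strand mode are not given in the sources used here. The deposited counts were whole reads per gene, not normalized, and the FPKM deposited by the authors were the same counts per gene length and library total, checked from the values.

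Counts were tested in R 4.3.3 with edgeR 4.0.16 (filterByExpr, TMM, quasi-likelihood test), adjusted by Benjamini-Hochberg over 14561 genes and a threshold of 0.05. The code was first run on simulated counts with less spread than these libraries (common biological coefficient of variation 0.296) and few changed genes. That run does not show how the test behaves on these data. Each standard error is the size of the log2 fold change over the square root of its F. Ratios of FPKM were tested by exact permutation with scipy 1.17.1. The 8 genes and the lists were chosen with earlier results of these data known. Of 216 list entries all were matched, 4 by gene identifier. Named genes were the 8, the 2 of each list with the smallest p, the first in the other direction, and the 2 most correlated with each called gene. Alternatives were DESeq2 1.42.0 (size factors, Wald test), upper quartile scaling, limma 3.58.1 (voom, or log2(FPKM + 1)), no filter or a stricter one (10 counts throughout a group), a replicate block, a muscle covariate and leaving out each library. The closest pair of libraries, sham 1 and 2, had a chi-square of 14.96 per gene. Same-numbered libraries deviated together from their group means (r of 0.259, 0.130 and 0.409 for numbers 1 to 3). Sham 1 with cut 2 (0.244) and sham 2 with cut 1 (0.115) were nearly as close, and the remaining pairs were negative. The values thus do not settle whether the numbers pair the libraries. The fit with a replicate block, which assumes so, is printed where it changed the call of a named gene. Some counts of lists that it changed are not printed. The number comes from the sample titles. Promoter windows were taken from RefSeq for 5 of the 8 genes.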

Additional observations from a re-analysis of the deposited data

How the results depend on the processing

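Pdgfrl was called under all 15 alternatives. With limma on log2(FPKM + 1), 2 PDGF genes were higher, Pdgfd (0.40) and Pdgfrb (0.87) were not called, and 0 processing genes were lower. With the muscle covariate 1 PDGF gene was higher and 0 were lower, with Pdgfb at -0.51, Pdgfd at 0.28, Pdgfrb at 0.31 and Cspg4 at 0.86, none called. That covariate left 1466 genes higher and 626 lower in all, 6 signalling genes higher and 2 lower, 0 processing genes lower and 1 early response gene higher. The DESeq2 Wald test called 2776 genes lower. The replicate block took the numbers to pair the libraries, which is not established. It called Pdgfc (0.67), gave 5 higher and 1 lower PDGF genes and changed no other call among the 8. The causes were not tested.

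With each library left out in turn, 1091 to 4212 genes were higher and 436 to 4392 lower, 1 to 6 PDGF genes were higher and 0 to 1 lower, 1 to 8 processing genes were higher and 0 to 1 lower, 3 to 19 signalling genes higher and 2 to 12 lower, and 0 to 10 early response genes higher and 0 to 2 lower. Log2 fold changes then ranged from -0.94 to -0.71 for Pdgfb, 0.49 to 0.93 for Pdgfc, 0.39 to 0.55 for Pdgfd, 0.21 to 0.66 for Pdgfra, 0.79 to 1.16 for Pdgfrb and 1.44 to 2.10 for Cspg4. The highest counts came without cut 3. Pdgfra was the one gene of the 8 whose sign changed, to -0.10 with the muscle covariate. The 5 FPKM ratios kept their direction under all alternatives run, and with 3 against 3 libraries none could pass 0.05. Depth did not limit the 8 genes, which had at least 280 counts in every library, but the platelet list held genes of a few counts.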
